A study of Mus musculus with 3 samples.

Results

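Genes that mark the thalamus, the striatum and the hippocampus were followed through a comparison of mouse cerebral cortex between genotypes, as a readout of tissue beside the cortex in each dissected sample. The set held 33 genes, of which 9 mark the thalamus, 13 the striatum and 11 the hippocampus. They were listed by name as region markers, with earlier results of these data known, and found on the arrays through the RefSeq accession of each probe. A probe was named for 27 of the 33 genes, which gave 38 probes among the 41174 gene probes of the array and the 15724 genes that could be named there. No probe was named for Synpo2 and Plekhg1 (thalamus), Syndig1l (striatum), or Dsp, Lct and Spata13 (hippocampus). Of the 38 probes, 35 for 26 genes were reliable on at least 2 of the 3 arrays and were tested. The probes left untested were the single probe of Lef1, 1 of 3 for Tcf7l2 and 1 of 2 for Tdo2.

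The study set the cortex of Gtf2i(+/Δex2) mice, which carry 1 allele named for a deletion of exon 2 of Gtf2i, against that of WT(+/+) mice. Gtf2i encodes the transcription factor TFII-I. Mice of both genotypes were 16 weeks old and shared a mixed background of 98.4% C57BL/6J and 1.6% 129Sv/CD1. The labels used here give no sex. RNA of 3 to 5 animals of 1 genotype was pooled, and each of the 3 arrays set a mutant pool in one dye against a wild-type pool in the other. Cy3 labelled the mutant pool on replicates 1 and 3, and Cy5 labelled it on replicate 2. Whether the arrays share pools is not stated, and the p-values therefore measure no more than the spread of these 3 arrays, which may be technical. That number of arrays limits the precision. Ratios are given as log2 of mutant over wild type, so that 1 is a doubling. That direction, and with it the naming of the mutant and wild-type channels, is likely and not certain. The titles put the mutant first, and the deposited readme defines its fold as test over control. Pro25G control spots turned over with the dyes (median log2 ratio 4.51, -4.54 and 4.58 on replicates 1, 2 and 3). Their turn bears on whether the arrays are oriented alike, and not on which genotype is the numerator.

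The thalamus relays sensory and motor signals to the cortex, and most of its relay neurons are glutamatergic cells that use the vesicular transporter VGLUT2 (Slc17a6) and keep the transcription factor Tcf7l2 in the adult. The striatum consists mainly of inhibitory medium spiny neurons, which fall into a class with the dopamine receptor Drd1 and the peptide dynorphin (Pdyn) and a class with Drd2, Adora2a and enkephalin (Penk). The hippocampus lies under the cortex and is marked by Prox1 and C1ql2 in dentate granule cells and by Wfs1, Fibcd1 and Mpped1 in CA1 pyramidal cells. These genes are markers by enrichment: Penk, Pdyn, Rora, Ppp1r1b, Calb1, Wfs1 and Mpped1, among others, are also transcribed in cortical neurons. In pooled tissue RNA, fewer cells of a type and less RNA per cell cannot be told apart.

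Arrays were checked before the members were read. Reliable gene spots made up 64.4% to 69.7% of each array. Over 27531 tested probes the ratios correlated with r = 0.822 between replicates 1 and 2, 0.783 between 1 and 3, and 0.625 between 2 and 3. Gtf2i itself fell on all 3 arrays, with ratios of -0.46, -0.44 and -0.52 for one probe (mean -0.47, limma adjusted p = 0.00261) and -0.34, -0.34 and -0.26 for the other (mean -0.32, adjusted p = 0.00506). Where these probes lie relative to the deleted exon was not used here. Of 20 cortical layer genes 17, among them Slc17a7, Cux2, Fezf2 and Tbr1, were reliable on at least 2 arrays, as were 12 of the 13 striatal markers, so detection alone does not identify the tissue. No probe passed the threshold for an effect of the dye in limma, although 2409 of the 27531 had an unadjusted p under 0.05. The dye term sets replicate 2 against replicates 1 and 3, so the dye and that array cannot be told apart. With 3 arrays this test has little power, and no conclusion on the dye is drawn from it.

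The thalamic markers set replicate 3 apart from the other arrays, and they did so mainly through its wild-type channel. On replicates 1 and 2 the 11 thalamic probes averaged ratios of 0.01 and 0.06, and on replicate 3 they averaged 0.86. The ratio was highest on replicate 3 for 10 of the 11 probes, against 38.0% of all tested probes. For 8 of the 11, from all 6 tested thalamic genes, it exceeded both other arrays by at least 0.5, a gap reached by 159 of the 27531 tested probes (0.578%). With a gap of at least 1, 5 thalamic probes remained, for Zic1 (both probes), Tcf7l2, Tnnt1 and Prkcd, of only 22 probes on the whole array (0.0799%). The gaps of 0.5 and 1 were chosen after the values were seen, and with 1 array of each kind there is no test between arrays.

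The sequences before the starts of these 4 genes are shown for reference. Tcf7l2 and Zic1 both encode DNA-binding transcription factors. Only the core motif of the family of Tcf7l2 was searched, and no motif of Zic1. Whether either protein acts on any of these genes was not tested. Each is the 250 bases before the annotated start in RefSeq on GRCm38.p6, written 5′ to 3′ on the gene's strand. Zic1 is taken from chr9:91365769-91366018 (minus strand), Tcf7l2 from chr19:55741560-55741809 (plus, the first of 2 listed starts), Tnnt1 from chr7:4515976-4516225 (minus) and Prkcd from chr14:30626209-30626458 (minus, the first of 2). Capitals mark matches to CTTTGA, the core bound by TCF and LEF proteins, searched on both strands (TCAAAG on the other).
Zic1: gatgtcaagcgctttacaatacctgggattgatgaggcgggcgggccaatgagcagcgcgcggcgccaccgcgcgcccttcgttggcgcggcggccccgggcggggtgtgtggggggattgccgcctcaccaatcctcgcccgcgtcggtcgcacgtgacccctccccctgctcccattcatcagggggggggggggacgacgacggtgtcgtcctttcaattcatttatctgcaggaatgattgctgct
Tcf7l2: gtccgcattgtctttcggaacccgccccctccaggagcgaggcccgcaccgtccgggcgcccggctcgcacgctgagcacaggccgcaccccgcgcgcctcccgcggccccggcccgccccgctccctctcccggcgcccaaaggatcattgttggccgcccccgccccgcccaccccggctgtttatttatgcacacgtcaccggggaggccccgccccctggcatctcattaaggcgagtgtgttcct
Tnnt1: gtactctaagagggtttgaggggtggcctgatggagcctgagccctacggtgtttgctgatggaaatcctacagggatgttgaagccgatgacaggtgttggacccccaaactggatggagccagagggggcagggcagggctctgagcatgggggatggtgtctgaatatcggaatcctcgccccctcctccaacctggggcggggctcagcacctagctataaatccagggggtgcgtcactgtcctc
Prkcd: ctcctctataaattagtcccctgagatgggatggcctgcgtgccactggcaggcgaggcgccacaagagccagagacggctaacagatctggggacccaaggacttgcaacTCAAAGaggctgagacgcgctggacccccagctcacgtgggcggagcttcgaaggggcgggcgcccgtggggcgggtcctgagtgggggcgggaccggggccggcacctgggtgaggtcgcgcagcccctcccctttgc
Of the 4 windows, that of Prkcd held the core, once, as TCAAAG. Over all 32851 windows of this length in the table, 4544 (13.8%) held it, as did 2 of the 9 thalamic genes (Lef1 and Prkcd) and 4 of the 28 members with an entry. A match is a string of letters in this window and not a measured binding site.

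Zic1, a zinc-finger transcription factor of thalamic and other dorsal neurons, gave the clearest view of the channels. One probe had mutant intensities of 2511, 2890 and 2160 on replicates 1, 2 and 3 and wild-type intensities of 2439, 2719 and 801. The second probe repeated this, with 1687, 1865 and 1518 in the mutant and 1622, 1691 and 593 in the wild-type channel. Mutant and wild-type pools were close on replicates 1 and 2, and the wild-type pool of replicate 3 was far below all 5 other channels. For both probes the mutant pool of replicate 3 was also the lowest mutant pool, by a smaller margin. The ratios were 0.04, 0.09 and 1.43 for the first probe (mean 0.52, SD 0.79, n = 3, limma adjusted p = 0.205) and 0.06, 0.14 and 1.36 for the second (mean 0.52, SD 0.73, adjusted p = 0.177). Neither passed the threshold. Without replicate 3 the means were 0.07 and 0.10.

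Tcf7l2, the HMG-box partner of beta-catenin that thalamic neurons keep into adulthood, was higher in the mutant on every array and was the only thalamic marker that passed the test. Its brightest probe read 2679, 3151 and 2071 in the mutant channels and 1945, 2083 and 613 in the wild-type channels. The mutant exceeded the wild type on each array, and replicate 3 differed again by its low wild-type value. The mutant value on replicate 3 was also the lowest of the mutant values, by a smaller fall. The ratios of 0.46, 0.60 and 1.76 gave a mean of 0.94 (SD 0.71, n = 3, adjusted p = 0.0403), a 1.92-fold difference. Without replicate 3 the mean fell to 0.53 with an adjusted p of 0.000252. The call was lost without replicate 1 (1.18, adjusted p = 0.053), without replicate 2 (1.11, adjusted p = 0.0795), with the dye as a term (0.85, adjusted p = 0.0877) and with replicates 1 and 2 counted as 1 array (1.14, adjusted p = 0.0656). A second tested Tcf7l2 probe, at 231 to 248 in all 6 channels, showed no such pattern (ratios -0.09, 0.03 and 0.02, mean -0.01, adjusted p = 0.838), so the probes of this gene disagreed.

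Prkcd, the protein kinase C delta of sensory relay nuclei, turned its sign between arrays. Its intensities were 530, 535 and 608 in the mutant channels and 634, 609 and 279 in the wild-type channels. The mutant lay below the wild type on replicates 1 and 2 and above it on replicate 3. The ratios were -0.26, -0.19 and 1.13 (mean 0.23, SD 0.78, adjusted p = 0.558). Without replicate 3 the mean was -0.22 with an adjusted p of 0.0125, so leaving out that array both reversed the direction and made a call. The second Prkcd probe, at -0.07, -0.23 and 0.48, was likewise below 0 on replicates 1 and 2 and above it on replicate 3.

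Tnnt1, a troponin T isoform of slow muscle that also marks thalamic neurons, read 545, 553 and 625 in the mutant and 500, 563 and 279 in the wild-type channels. All channels except the wild-type pool of replicate 3 lay between 500 and 625. The ratios were 0.12, -0.03 and 1.16 (mean 0.42, SD 0.65, adjusted p = 0.213), and 0.05 without replicate 3.

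The other thalamic genes had smaller ranges of the ratio between arrays and did not pass the test. Rora, a nuclear receptor of relay neurons that some cortical neurons also express, had ratios of 0.04, 0.07 and 0.55 for one probe and 0.00, 0.08 and 0.59 for the other. Slc17a6 was low in both channels of replicate 3. Its dimmer probe read 574, 592 and 369 in the mutant and 590, 666 and 259 in the wild-type channels, so both pools of replicate 3 were low and the wild-type pool was the lower (ratios -0.04, -0.17 and 0.51). Its brighter probe had ratios of -0.12, 0.26 and 0.44. The untested probe of Lef1, a relative of Tcf7l2, was reliable on 1 array.

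**Figure D1:**
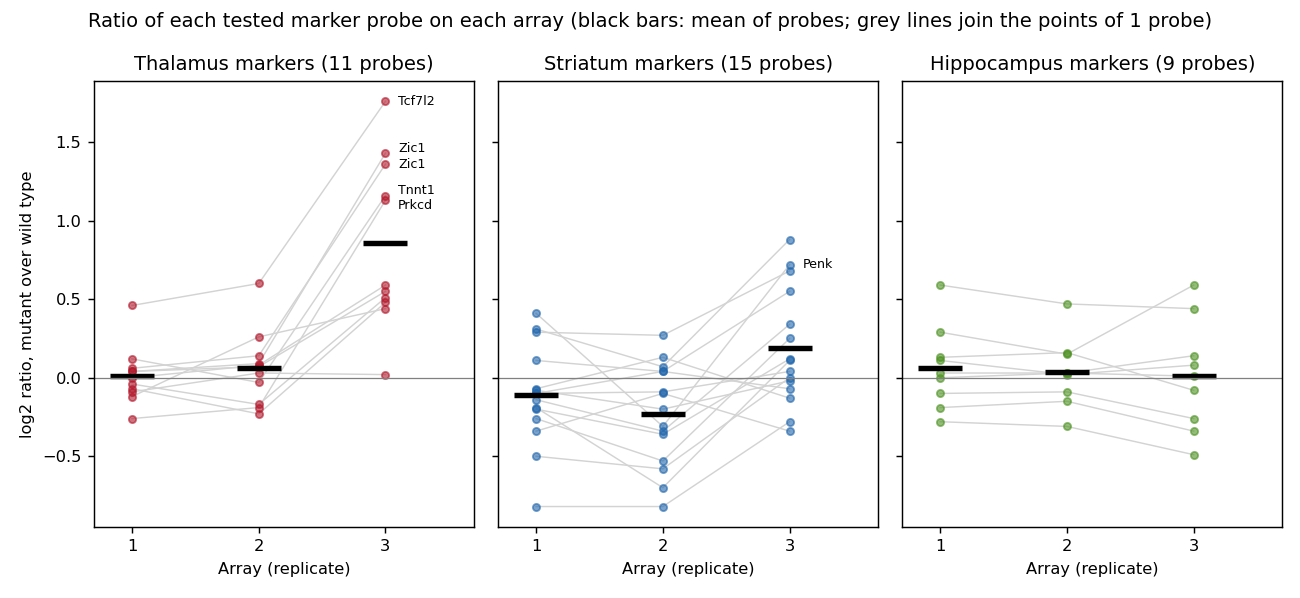
Log2 ratio of mutant over wild type (vertical axis) of each tested marker probe on replicates 1, 2 and 3 (horizontal axis), by region; black bars are the means over the probes of a region and grey lines join the points of 1 probe. The thalamic mean is 0.01, 0.06 and 0.86, with 5 probes of 4 named genes above 1 on replicate 3, while the hippocampal means lie between 0.01 and 0.06.

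To see which pool differed, each channel was expressed as a log2 level relative to its own median over reliable probes. In the wild-type channel the 11 thalamic probes lay on average -0.88 from their level on replicate 1, and all 11 were lower. Against replicate 2 they averaged -0.91 and 10 of 11 were lower. Over all tested probes the same mean difference between replicates 3 and 1 was 0.02. In the mutant channel the thalamic probes averaged -0.07, with 5 lower and 6 higher than on replicate 1. The lower probes were those of Slc17a6 (-0.64 and -0.26) and Zic1 (-0.22 and -0.16) and the brightest of Tcf7l2 (-0.37). The higher ones, of Rora, Prkcd, Tnnt1 and the second tested Tcf7l2 probe, differed by 0.01 to 0.24. The wild-type level of replicate 3 lay at least 0.5 below both others for 7 of the 11 thalamic probes, against 144 of all tested probes (0.523%). At a gap of 1 this held for 5 thalamic probes (Zic1 with both, Tcf7l2, Prkcd and Slc17a6), against 22 of all (0.0799%). Replicates 1 and 3 carry each genotype in the same dye, and replicate 2 carries them in the opposite dyes. Whether the dye has a part in these differences was not tested.

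**Figure D2:**
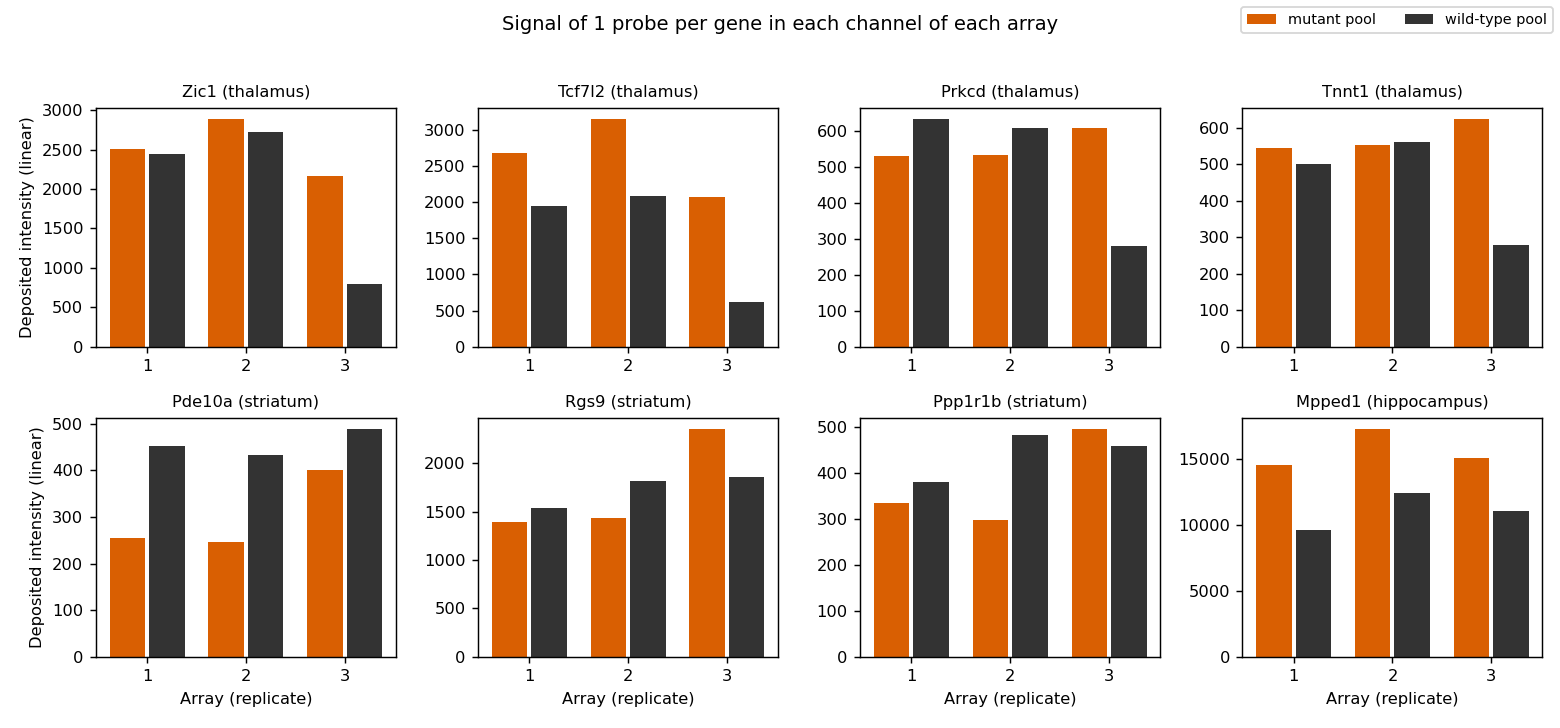
Deposited linear intensity (vertical axis) of 1 probe of each of 8 marker genes in the mutant and wild-type channels of replicates 1, 2 and 3; each bar is 1 pool on 1 array. For Zic1, Tcf7l2, Prkcd and Tnnt1 the wild-type bar of replicate 3 is the lowest of the 6 (801, 613, 279 and 279), and for Rgs9 and Ppp1r1b the mutant bar of replicate 3 is the highest (2354 and 495).

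The striatal markers also separated replicate 3, but through the mutant channel. Their 15 probes averaged ratios of -0.11, -0.23 and 0.19 on replicates 1, 2 and 3, and 12 of 15 were highest on replicate 3. In the mutant channel they averaged 0.36 above replicate 1 and 0.38 above replicate 2, with 13 of 15 higher in both comparisons. In the wild-type channel the averages were 0.08 and -0.03. The mutant level of replicate 3 lay at least 0.5 above both other arrays for 6 of the 15 probes (Drd2, Pde10a, Pde1b, Penk, Ppp1r1b and Rgs9), against 177 of all tested probes (0.643%). No thalamic or hippocampal probe did so.

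**Figure D3:**
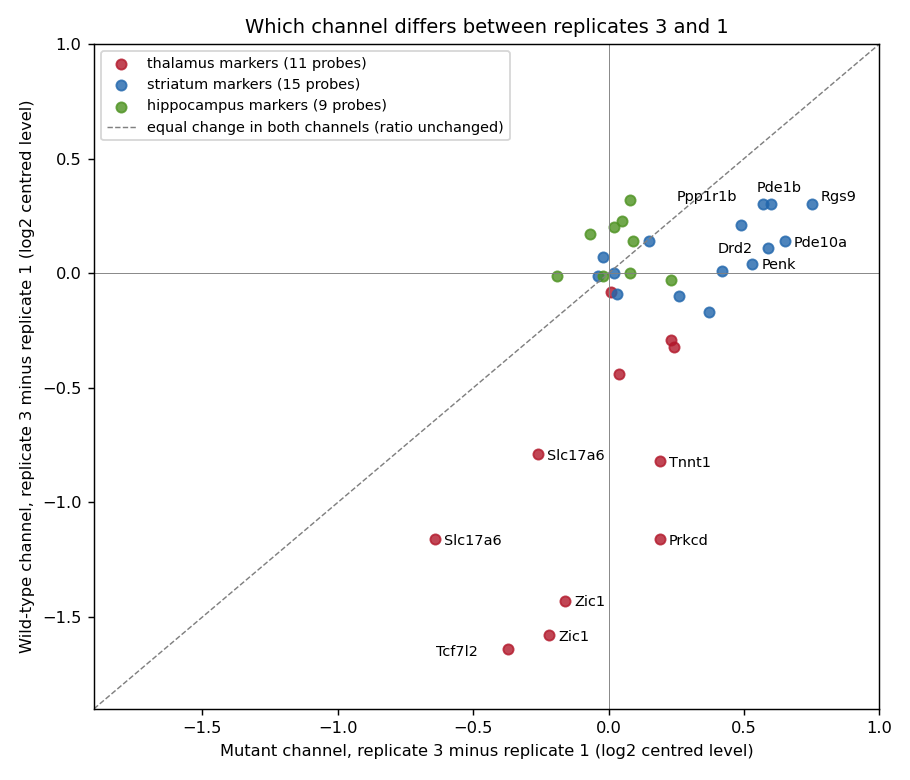
Difference in log2 level, replicate 3 minus replicate 1, in the mutant channel (horizontal axis) and in the wild-type channel (vertical axis), 1 point per tested probe; on the dashed line both channels differ equally. Thalamic points spread downwards, to -1.64 in the wild-type channel for Tcf7l2, and striatal points to the right, to 0.75 in the mutant channel for Rgs9.

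Among the striatal genes, Pde10a showed the widest difference between genotypes. Pde10a, the phosphodiesterase that degrades cyclic nucleotides in medium spiny neurons, read 255, 246 and 402 in the mutant and 452, 433 and 489 in the wild-type channels. Among the mutant pools, that of replicate 3 came nearest to the wild-type values. The ratios of -0.82, -0.82 and -0.28 gave a mean of -0.64 (SD 0.31, n = 3, adjusted p = 0.0129), so that the mutant level was 64.2% of the wild-type level. The call was lost without replicate 1 or 2 (both -0.55, adjusted p = 0.0647 and 0.0605) and with those 2 counted as 1 array (adjusted p = 0.0605). Without replicate 3 the mean was -0.82 with an adjusted p of 2.05e-05.

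Adora2a, an adenosine receptor of the Drd2 class, had the narrowest spread of ratios among the striatal genes that passed. It read 6303, 6325 and 6136 in the mutant and 7971, 6773 and 7764 in the wild-type channels. The ratios were -0.34, -0.10 and -0.34 (mean -0.26, SD 0.14, adjusted p = 0.0271), and without replicate 1 the call was lost (-0.22, adjusted p = 0.164). Adora2a was one of the 2 striatal probes whose mutant level on replicate 3 was not above that on replicate 1.

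Pdyn, which encodes the dynorphin precursor of the Drd1 class, was the only striatal marker that passed the test in the upward direction. It read 6583, 7653 and 7889 in the mutant and 5368, 6361 and 4926 in the wild-type channels. The ratios were 0.29, 0.27 and 0.68 (mean 0.41, SD 0.23, adjusted p = 0.0213), a 1.33-fold difference. Without replicate 1 the mean was 0.47 with an adjusted p of 0.0599.

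Penk was the striatal gene with the widest range between arrays, and its probes disagreed. The brighter probe read 48354, 44940 and 68211 in the mutant and 36349, 55851 and 41424 in the wild-type channels, with ratios of 0.41, -0.31 and 0.72 (mean 0.27, SD 0.53, adjusted p = 0.312). The dimmer probe read 892, 866 and 1290 in the mutant and 1071, 1254 and 1083 in the wild-type channels, with ratios of -0.26, -0.53 and 0.25 (mean -0.18, adjusted p = 0.373). For both probes the mutant pool of replicate 3 was the highest of the 6 channels, and the sign differed between arrays. Without replicate 2 the brighter probe was called higher (0.57, adjusted p = 0.0238), and without replicate 3 the dimmer probe was called lower (-0.40, adjusted p = 0.0025).

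The remaining striatal genes did not pass the test on 3 arrays. Drd2, the D2 dopamine receptor, read 348, 350 and 523 in the mutant and 493, 524 and 524 in the wild-type channels (ratios -0.50, -0.58 and 0.00, adjusted p = 0.0648). Rgs9, which speeds the turn-off of G proteins below dopamine receptors, read 1393, 1438 and 2354 in the mutant and 1536, 1817 and 1862 in the wild-type channels (ratios -0.14, -0.34 and 0.34, adjusted p = 0.80). Ppp1r1b, which encodes the dopamine-regulated phosphatase inhibitor DARPP-32, had ratios of -0.19, -0.70 and 0.11 (adjusted p = 0.227). For these probes the mutant pool of replicate 3 stood well above the other mutant pools. The second Drd2 probe did not show this: it read 306, 312 and 313 in the mutant and 329, 331 and 305 in the wild-type channels (ratios -0.10, -0.09 and 0.04, adjusted p = 0.428), so the probes of Drd2 disagreed. The calmodulin-dependent phosphodiesterase Pde1b had ratios of -0.20, -0.36 and 0.12, and the D1 receptor Drd1 0.11, 0.04 and 0.55. The retinoid receptor Rxrg was above 0 on all 3 arrays, at 0.31, 0.07 and 0.88, with a mean of 0.42 and an adjusted p of 0.0855. Gpr6, an orphan receptor of the Drd2 class, and the transcription factor Six3 (both probes) had means between -0.10 and -0.02.

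The hippocampal markers did not separate the arrays by their averages. Replicate 3 was still the array farthest from the other arrays for 6 of the 9 probes (66.7%), in either direction, against 37.0% of all tested probes. Their 9 probes averaged ratios of 0.06, 0.03 and 0.01, which became 0.00 on replicate 1 and -0.09 on replicate 3 with the level of the negative control spots subtracted. In the levels, replicate 3 differed from replicate 1 by 0.03 in the mutant and 0.11 in the wild-type channel on average. No hippocampal probe had a ratio on replicate 3 at least 0.5 above both others, against 0.578% of all tested probes, or at least 0.5 below both, against 0.309%. With only 9 probes and shares this small, the empty counts do not tell this list from all probes. The median range between arrays was 0.16 for hippocampal probes, 0.50 for striatal and 0.71 for thalamic probes, against 0.14 over all tested probes.

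Members of the hippocampal set nevertheless differed between genotypes, in both directions. Mpped1, a metallophosphoesterase-domain gene enriched in CA1 and also expressed in cortex, read 14519, 17276 and 15046 in the mutant and 9639, 12445 and 11095 in the wild-type channels. The mutant value was the higher on each array. The ratios of 0.59, 0.47 and 0.44 gave a mean of 0.50 (SD 0.08, n = 3, adjusted p = 0.00308), a 1.42-fold difference. Wfs1, the wolframin gene of the endoplasmic reticulum, read 4684, 4844 and 5519 in the mutant and 3823, 4353 and 3675 in the wild-type channels. Its ratios were 0.29, 0.15 and 0.59 (mean 0.34, SD 0.22, adjusted p = 0.0321), and the call was lost without replicate 1 (adjusted p = 0.106) and with replicates 1 and 2 counted as 1 array (adjusted p = 0.0578).

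Fibcd1 and C1ql2 fell. Fibcd1, a chitin-binding membrane protein gene of CA1, read 145, 150 and 154 in the mutant and 176, 186 and 216 in the wild-type channels. Ratios of -0.28, -0.31 and -0.49 gave a mean of -0.36 (SD 0.11, adjusted p = 0.00788). C1ql2, a secreted C1q-like protein of dentate mossy fibres, read 199, 189 and 174 in the mutant and 227, 209 and 221 in the wild-type channels. Its ratios were -0.19, -0.15 and -0.34 (mean -0.23, SD 0.10, adjusted p = 0.0238), with the call lost without replicate 1 (adjusted p = 0.114) and with replicates 1 and 2 counted as 1 array (adjusted p = 0.0587). Both genes were dim: the negative control spots had medians of 72.3 to 81.4 in the 6 channels, and subtracting that level moved the means to -0.68 for Fibcd1 and -0.39 for C1ql2.

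Prox1, the homeobox gene that defines dentate granule cells, had ratios of 0.00, 0.03 and 0.01 for one probe and -0.10, -0.09 and -0.26 for the other (adjusted p = 0.828 and 0.063). Calb1, a calcium-binding protein of granule cells and of many cortical neurons, had ratios of 0.11, 0.02 and 0.08. Tdo2, which degrades tryptophan, and Il16, an interleukin precursor, had means of 0.06 and 0.07. None of these passed the threshold.

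**Figure D4:**
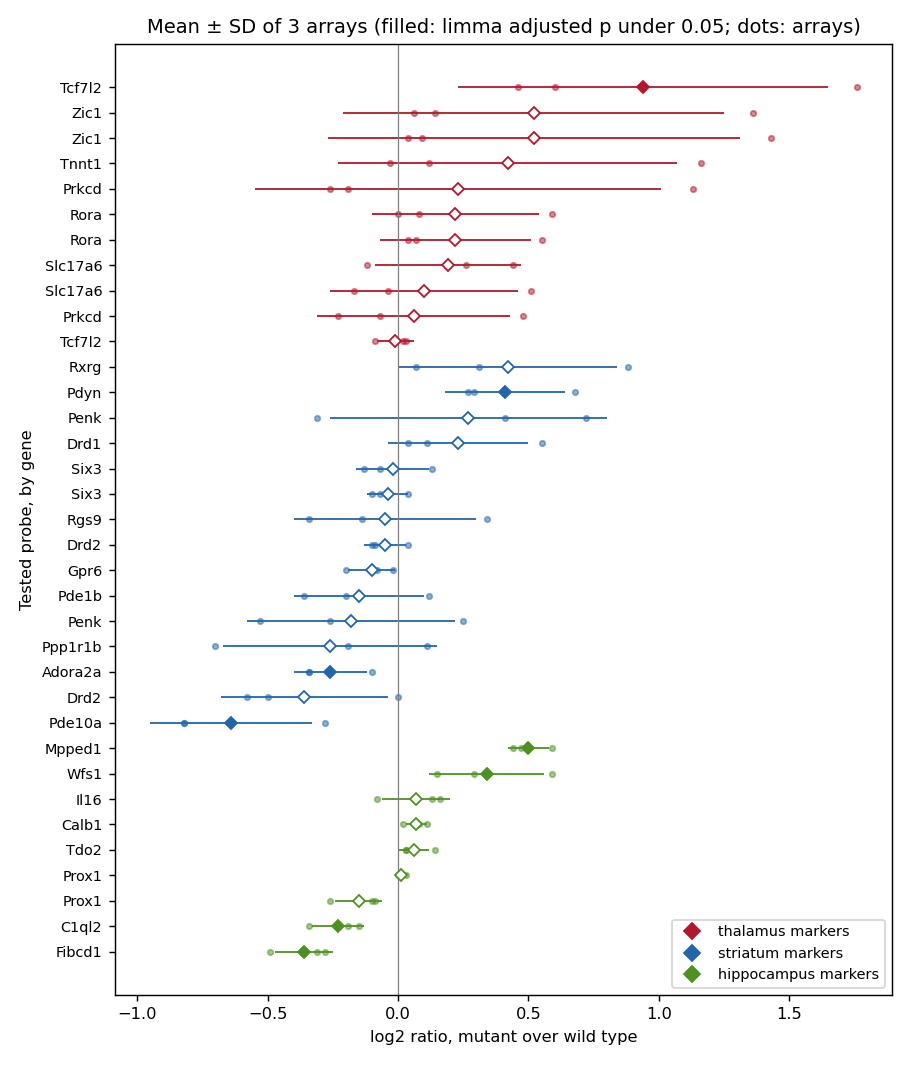
Mean log2 ratio of mutant over wild type with SD over 3 arrays (horizontal axis) for each tested marker probe (vertical axis, by gene and region); filled diamonds passed a limma adjusted p of 0.05 and dots are the arrays. Mpped1 (0.50) and Fibcd1 (-0.36) have narrow spreads, while the called probe of Tcf7l2 has an SD of 0.71.

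Counted over genes, 8 of the 26 tested members passed the threshold (30.8%), 4 higher and 4 lower. Over all 12721 tested genes that could be named, each by its probe of smallest p, 40.7% passed (17.1% higher, 23.6% lower). Over all probes, 33.9% passed (15.0% higher, 18.9% lower), against 8 of the 35 member probes. Calls were therefore no more frequent among the members than among all genes. By region, 1 of 6 thalamic, 3 of 12 striatal and 4 of 8 hippocampal genes passed. The median absolute mean ratio was 0.22 over the member probes and 0.109 over all tested probes.

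Leaving out replicate 3 changed the striatal count most. With replicates 1 and 2 alone, 14 of the 26 members passed (4 higher, 10 lower), against 42.4% of all named genes (18.0% higher, 24.3% lower). The striatal count went from 3 to 8 of 12, with 7 lower: Adora2a, Pde10a, Drd2, Pde1b, Penk, Ppp1r1b and Rgs9. The thalamic genes called were Tcf7l2 (higher) and Prkcd (lower), and the same 4 hippocampal genes passed. Without replicate 1, 2 members passed, Mpped1 and Fibcd1, against 11.0% of all named genes. Without replicate 2, 7 passed, against 31.8%.

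Lists of other genes of the same regions, none of them members, were read on each array too. These lists, too, were assembled with earlier results of these data known. The 19 tested probes of other thalamic genes averaged -0.05, -0.06 and 0.31, and their wild-type level on replicate 3 averaged -0.32 from replicate 1, with 16 of 19 lower. The mutant level averaged 0.01. Patj, a cell polarity scaffold, had ratios of -0.25, -0.12 and 0.76, and Nexn, an actin-binding protein gene, 0.18, 0.21 and 1.09. The 18 probes of other striatal genes averaged -0.18, -0.16 and 0.11, with a mutant level 0.27 above replicate 1 (15 of 18 higher) and a wild-type difference of 0.01. Gng7, the G protein subunit of striatal signalling, had ratios of -0.60, -0.68 and -0.22. The 20 probes of other hippocampal genes averaged -0.05, -0.04 and -0.14.

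By the test on 3 arrays, 3 of 15 other thalamic genes passed (Foxp2 and Slitrk6 higher, Adarb1 lower), 4 of 15 other striatal genes (Isl1 and Gprin3 higher, Gng7 and Foxp1 lower) and 7 of 18 other hippocampal genes (3 higher, 4 lower), beside the 40.7% of all named genes. Among the last, Dkk3, a secreted Wnt modulator, had a mean of -0.75 (adjusted p = 0.0047) and Nnat, the imprinted neuronatin gene, -0.69 (adjusted p = 0.00197).

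Markers of the remaining regions and cell types that a cortical dissection could hold were read in the same way, and their part in the results was not tested. The counts of genes that passed in these lists stand beside 40.7% of all named genes. Cortical layer genes averaged -0.26, -0.25 and -0.30, and 12 of 17 passed, 11 of them lower, such as Mef2c (mean -0.64, adjusted p = 0.00201) and Cux2 (-0.45, adjusted p = 0.00291). The gene called higher was Foxp2, which is also among the other thalamic genes. On replicate 3 the cortical layer probes averaged 0.15 above replicate 1 in the mutant level (17 of 20 higher) and 0.21 above it in the wild-type level (18 of 20 higher). Olfactory bulb genes averaged -0.22, -0.22 and 0.11 and were low in both channels of replicate 3, by -0.40 in the mutant and -0.71 in the wild-type level, with 6 of 6 probes lower in each; 2 of 5 genes passed. Choroid plexus and ependymal genes averaged 0.14, 0.15 and 0.22, with 3 of 8 genes called, all higher, including Clic6 (mean 0.53, adjusted p = 0.00227).

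Oligodendrocyte genes averaged -0.08, -0.13 and 0.03, with 4 of 11 called. Their wild-type level on replicate 3 averaged -0.17 from replicate 1 (15 of 17 probes lower), and their mutant level -0.09 (11 of 17 lower). Genes of the hypothalamus and basal forebrain averaged -0.06, -0.07 and -0.01, with 4 of 12 called. Habenular genes (2 of 3 called) averaged -0.17, -0.21 and -0.12, and cerebellar and hindbrain genes (2 of 3 called) -0.06, -0.08 and -0.03. Of the 10 lists, the averages of other thalamic, other striatal and olfactory bulb genes on replicate 3 lay more than 0.2 above both other arrays.

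**Figure D5:**
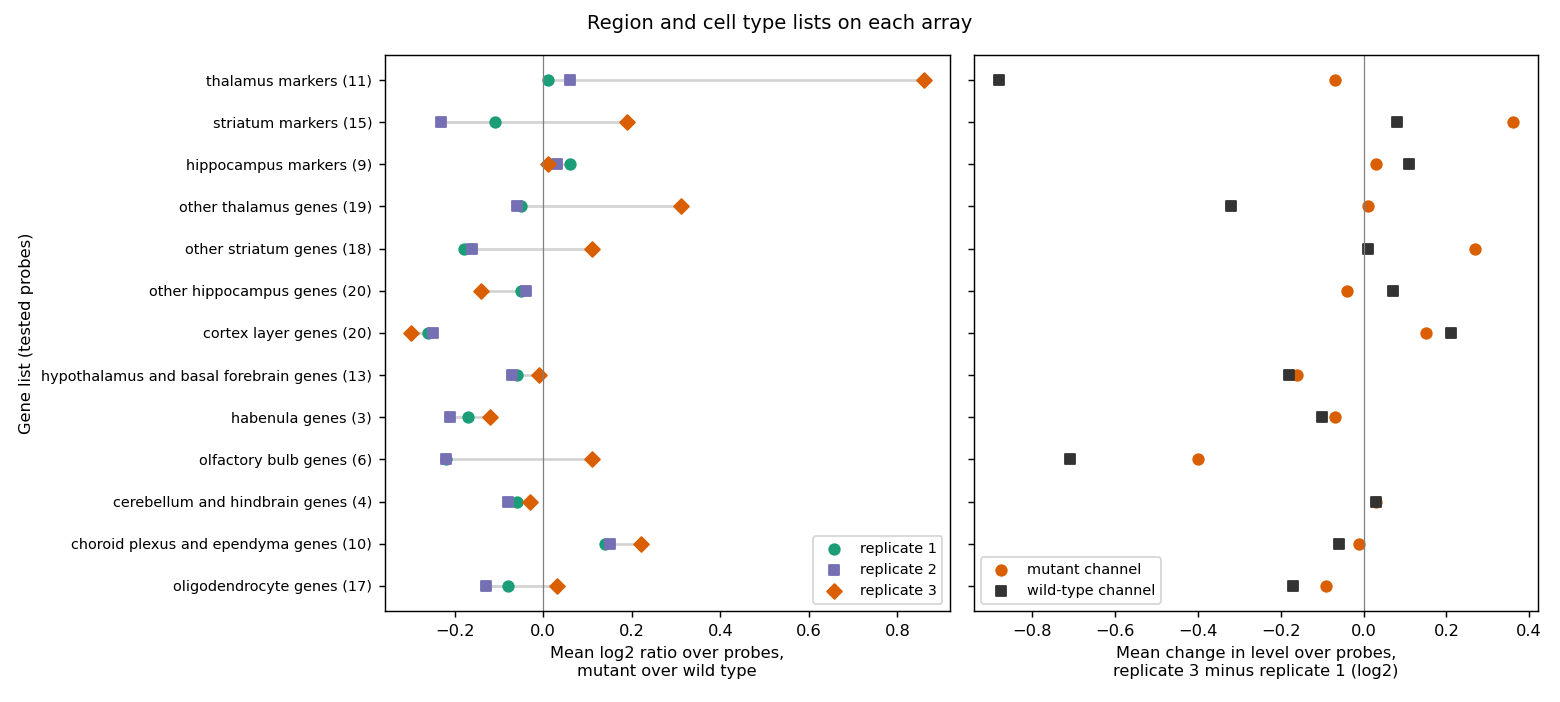
Left, mean log2 ratio of mutant over wild type (horizontal axis) of the tested probes of each list (vertical axis, probe number in brackets) on replicates 1, 2 and 3; right, mean difference in log2 level, replicate 3 minus replicate 1, in each channel. Thalamic markers have the lowest wild-type value (-0.88) and striatal markers the highest mutant value (0.36), and cortical layer genes have means from -0.30 to -0.25 on all 3 arrays.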

How the data were processed

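Each array's table, as the authors deposited it, gives every spot an intensity on a linear scale in 2 channels. Calling one the mutant and the other the wild-type channel is an inference from the titles and the readme. Like the direction of the ratio, it is likely and not certain. The deposited readme calls the intensities background-subtracted and normalized. The normalization method, aligner and build are not given in the sources used here. The deposited numbers use decimal commas, which were read as decimal points. Spots of 1 probe were averaged, and probes were named by unversioned RefSeq accession from a table on GRCm38.p6, which named 21445 of 41174 gene probes (52.1%). The log2 ratio of the 2 deposited channels was set against 0 for the 27531 probes that the authors' rule (foreground over 2 times background) called reliable on at least 2 arrays. The test was limma 3.58.1 (lmFit, eBayes) in R 4.3.3, with Benjamini-Hochberg adjustment over all tested probes at 0.05; the script was tested on simulated data. A gene was counted by its tested probe of smallest p.

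Channel levels are log2 intensities minus the channel's median over probes reliable on all 3 arrays, and have no test. Members called, and members with a range of at least 1 between arrays, are given array by array, and at most 4 genes of each of 10 other lists by smallest p and widest range. A gene that this rule takes is not reported here. Members and lists were chosen with earlier results of these data known. Gaps of 0.5 and 1 and 2 rescalings of the channel levels were added after the values were seen. Tables were read with pandas 2.3.3 and figures drawn with matplotlib 3.10.9 in Python 3.11.15. Raw scanner files, and the authors' signed fold and value table, which repeat the ratio, were not used here.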

Additional observations from a re-analysis of the deposited data

How the results depend on the processing

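Of all tested probes, 9333 passed, against 18614 with array weights, 5122 with replicates 1 and 2 counted as 1 array, 2659 by a limma B statistic above 0, and 2407 (without replicate 1) to 9886 (without replicate 3) with 1 array left out. Of the members, 8 passed, against 18 with array weights (8 higher, 10 lower), 4 with replicates 1 and 2 counted as 1, 1 by B above 0 (Mpped1), and 2 to 14 with 1 array left out. Array weights were 5.84, 0.373 and 0.459 for replicates 1, 2 and 3. Mpped1 and Fibcd1 kept their call in the 12 refits of the ratio, including each array left out, although the size for Fibcd1 ranged from -0.68 to -0.29. One Prkcd probe reversed from 0.23 to -0.16 with array weights (adjusted p = 0.373) and ranged from -0.22 (without replicate 3) to 0.47 (without replicate 1) with 1 array left out. The thalamic and striatal averages on each array and in each channel moved by less than the spread between replicates under every rescaling tried. Their means over arrays depended on the arrays used. The thalamic mean went from 0.31 to 0.07 with array weights and to 0.04 without replicate 3. The striatal mean went from -0.05 to 0.04 without replicate 2 and to -0.17 without replicate 3. The hippocampal mean ratio went from 0.04 to -0.02 with the negative control level subtracted (0.00 on replicate 1 and -0.09 on replicate 3), and its mutant level difference between replicates 3 and 1 from 0.03 to 0.00 there and to 0.01 after quantile scaling of the 6 channels; the cause was not tested. The main test was already paired, because each array gives 1 ratio of its mutant pool over its wild-type pool. No further pairing was possible, as there is no second group of ratios. Intensities within a few times the negative controls, as for Fibcd1, C1ql2 and Prox1, limit how far a ratio can be read.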

Other observations

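Outside the markers, and chosen after the values were seen, Slc6a3, the dopamine transporter gene of midbrain neurons, had the pattern of the thalamic markers in a wider form. Its probe read 1139, 1212 and 877 in the mutant channels and 985, 1031 and 155 in the wild-type channels of replicates 1, 2 and 3. The ratios were 0.21, 0.23 and 2.50 (limma adjusted p = 0.16), and the wild-type level of replicate 3 lay -2.65 from replicate 1. Of the 22 probes whose ratio on replicate 3 exceeded both other arrays by at least 1, 13 were named, and 5 of those belong to the members. The other named genes were Arfip2, Chrna7, Hoxc9, Mmp14, Nprl2, Olfr798, Slc6a3 and Xlr4b. Of these, only Slc6a3 had a wild-type level on replicate 3 at least 1 below both other arrays. Arfip2, Chrna7, Hoxc9, Nprl2 and Olfr798 instead had a mutant level on replicate 3 at least 1 above both.

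Hcrt, the orexin gene of lateral hypothalamic neurons, was low in both channels of replicate 3, at 1411, 1543 and 971 in the mutant and 1216, 1312 and 567 in the wild-type channels. Its ratios of 0.21, 0.23 and 0.78 passed the test (adjusted p = 0.0482). The call for Hcrt was lost without replicate 1 and without replicate 2, and kept without replicate 3. Pomc, the precursor of hypothalamic and pituitary peptides, went the other way, with ratios of -0.64, -0.60 and -1.58 (adjusted p = 0.0207) and a wild-type level on replicate 3 that was 0.97 above replicate 1. Crym, a thyroid hormone-binding protein gene listed among the cortical layer genes, had ratios of 0.09, 0.33 and -0.92, with a mutant level on replicate 3 at -0.78 from replicate 1.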
